A study of Mus musculus with 15 samples.

Results

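Long RNA of heterozygous mouse testes, which carry 1 intact copy of a piRNA locus on chromosome 18, was compared with that of wild-type testes, which carry 2. All 3 heterozygous and all 3 wild-type RNA-seq libraries were used, 6 of the 15 libraries of the series, and every annotated feature was tested. All testes were labelled B6D2F1, the name of an F1 hybrid of C57BL/6 and DBA/2 mice, and postnatal day 28. The 3 homozygous RNA-seq libraries entered the same fit and are given beside the results. How the allele was made, how the animals were bred and whether each library came from a separate animal are not given in the sources used here, so p-values measure only the spread between these libraries, which may be technical.

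Pachytene piRNAs are small RNAs that are cut from long single-stranded precursors in male germ cells during and after meiosis and are loaded onto PIWI proteins such as MIWI (Piwil1) and MILI (Piwil2). The transcription factor A-MYB (Mybl1) drives many of these precursors, often as divergent pairs from a shared promoter. At postnatal day 28 the mouse testis holds the first wave of germ cells up to spermatids, beside Sertoli cells that nurse them and Leydig cells that make testosterone from cholesterol.

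Total counts were 21684791 to 36936068 per wild-type library and 28639855 to 41513634 per heterozygous library, and levels are CPM of the scaled library. Wild-type library 1 stood apart from the other wild-type libraries: its share of mitochondrial counts was 16.9%, against 12.2% and 11.6%, and its share of small structured RNAs was 6.60%, against 4.22% and 3.91%. The mitochondrial share was 16.2%, 14.35% and 15.8% in heterozygous libraries and 16.2% to 19.0% in homozygous ones. On that measure wild-type libraries 2 and 3 lay below all mutant libraries, and wild-type library 1 did not. A chi-square of count differences per degree of freedom, larger for libraries further apart and for deeper ones, was 3.12 for wild-type libraries 2 and 3. It was 47.6 and 50.7 for the pairs with wild-type library 1, and 17.9 to 42.6 for heterozygous pairs. Wild-type libraries 2 and 3 were thus much closer to each other than other replicates. Heterozygous library 1 held the lowest levels of late spermatid genes, and heterozygous library 3 the strongest tilt towards long genes (both below). The first principal component held 42.6% of the variance, and on it the wild-type libraries lay from -59.3 to -42.6, the heterozygous ones from 18.2 to 31.8 and the homozygous ones from 14.5 to 30.3. Testis germ cell markers were abundant in all 6 libraries. Whole testes were measured, so fewer cells of a type and less RNA per cell cannot be told apart in any result.

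The chromosome 18 precursors checked the labels first. The minus-strand precursor 18_qE1_36451_1 (chr18:67029446-67066460, mm10) stood at 296, 269 and 255 CPM in wild type and at 205, 133 and 152 CPM in heterozygotes. Its divergent partner on the plus strand, 18_qE1_1295_2 (chr18:67066587-67084379), stood at 41.6, 38.7 and 39.2 CPM in wild type and at 26.7, 19.4 and 20.4 CPM in heterozygotes. For both transcripts every heterozygous library lay below every wild-type library and far above the homozygous mean, which was 0.156 CPM for the first and 0.0471 CPM for the second. The fitted heterozygous level of the minus-strand precursor was 59.8% of wild type (95% interval 48.5 to 73.7%; log2 fold change -0.74, SE 0.14, adjusted p = 0.00496, edgeR quasi-likelihood test). That of the plus-strand precursor was 55.7% (44.8 to 69.3%; -0.84, SE 0.14, adjusted p = 0.0036). Both intervals reach below a level of 50% of wild type. An annotated isoform shares 84.7% of the plus-strand precursor, and reads in shared stretches were not counted.

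**Figure D1:**
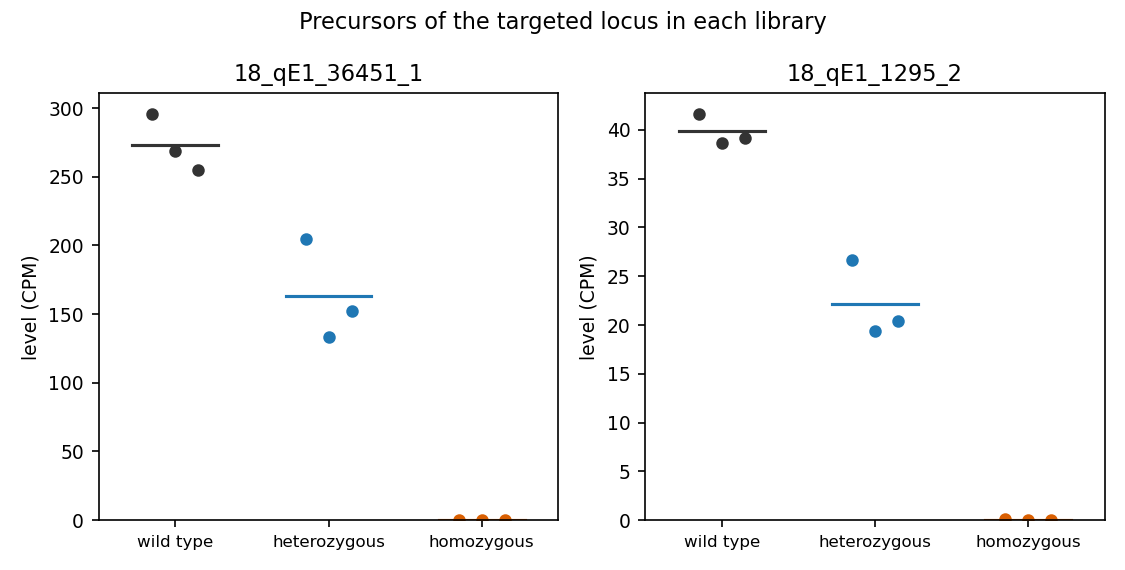
Level (CPM) of both precursors of the targeted locus in each library, with 3 libraries for each genotype; dots are libraries and lines are means. Heterozygous dots lie between wild type and homozygotes, at 133 to 205 CPM for 18_qE1_36451_1 and at 19.4 to 26.7 CPM for 18_qE1_1295_2.

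Genes within 2 Mb of the locus were read next. Of 28 features tested there 2 were higher and 3 lower, beside 11.1% and 12.9% of all tested features, so they were not called more often than features elsewhere. Gnal, which encodes an olfactory-type G protein subunit and starts 3.96 kb from the locus, stood at 6.97, 8.42 and 8.41 CPM in wild type and at 4.60, 4.71 and 5.16 CPM in heterozygotes (log2 fold change -0.72, adjusted p = 0.0196). Its homozygous mean was 2.51 CPM. Tubb6, a beta-tubulin gene 306 kb away, fell from 22.1 ± 0.225 to 8.47 ± 0.846 CPM (SD, n = 3; -1.38, SE 0.12, edgeR adjusted p = 4.5e-05), and its homozygous mean was 8.28 CPM. Cidea, which encodes a lipid droplet protein, fell by 0.59 on the log2 scale, while Rnmt, the mRNA cap methyltransferase gene, rose by 0.57 and the phosphatase gene Ptpn2 by 0.37. The other neighbours tested missed the threshold, and 1 of the 3 falls was called without wild-type library 2. Gnal and Tubb6 thus both fell, with homozygous means that lay below the heterozygous one for Gnal and next to it for Tubb6.

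Over the whole table, 20782 features were tested and 4977 passed at an adjusted p under 0.05 (23.9%, the background for every count of members). Higher in heterozygotes were 2302 (11.1%) and lower were 2675 (12.9%). Most changes were small: 2867 called features changed by less than 1.5-fold, 1426 by 1.5-fold to 2-fold and 684 (3.29%) by at least 2-fold, of which 255 were higher (1.23%) and 429 lower (2.06%). The larger the change, the more often it was a fall: 21 features rose and 90 fell at least 4-fold, and 3 rose and 47 fell at least 8-fold. The groups did not overlap in CPM for 8746 features (42.1%). With raw library sizes in place of scaled ones, 3175 features were higher and 1575 lower, against 2302 and 2675. The count of calls was 2901 without wild-type library 1 and 2432 without heterozygous library 3. The rises numbered 1469, 1511 and 1516 without wild-type libraries 1, 2 and 3 and 1044 without heterozygous library 3, the falls 1432 without wild-type library 1 and 1388 without heterozygous library 3, and the 2-fold calls 441 without wild-type library 1.

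Single genes lost nearly all of their RNA in heterozygotes. The long noncoding RNA gene 4933431M02Rik (chr6, 4.78 kb) stood at 40.0, 38.6 and 41.1 CPM in wild type and at 0.320, 0.301 and 0.516 CPM in heterozygotes. The log2 fold change was -6.73 (SE 0.17, edgeR adjusted p = 7.7e-10), and the homozygous mean was 0.507 CPM. Every wild-type library thus held at least 38.6 CPM and no heterozygous library more than 0.516. 1700029M03Rik, another long noncoding RNA, fell from 10.4 ± 1.11 to 1.11 ± 0.156 CPM, and Gm26715 from 2.76 ± 0.472 to 0.0566 ± 0.0193 CPM (SD, n = 3). AI987944 on chromosome 7 stood at 31.8, 31.8 and 32.5 CPM in wild type and at 6.18, 4.38 and 6.57 CPM in heterozygotes (log2 fold change -2.48, SE 0.14).

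Among coding genes outside the lists, Ubxn10, which encodes a ciliary cofactor of the VCP ATPase, fell from 189 ± 2.74 to 71.0 ± 3.72 CPM (SD, n = 3; -1.41, SE 0.09, edgeR adjusted p = 4.7e-06). Dnah11, an axonemal dynein heavy chain gene of motile cilia, stood at 12.3, 11.3 and 13.2 CPM in wild type and at 2.01, 1.80 and 1.65 CPM in heterozygotes (-2.74, SE 0.18). Yjefn3 fell from 4.71 ± 0.591 to 0.506 ± 0.0861 CPM, with 56.1% of its length shared with features of the same strand. Tent5b, a noncanonical poly(A) polymerase gene, fell by 1.98 on the log2 scale, to 8.61 ± 1.72 CPM. The genotypes did not overlap for any of these 4 genes, but the rule that named them admitted only genes without overlap. Of the 47 features that fell at least 8-fold, 18 were protein coding and 14 were long intergenic RNAs, 13 lay on chromosome 7, and only 6 reached 10 CPM in wild type. Among them, 4930432H08Rik, Gm44600, Rps15a-ps8, Gm11184 and Skint3 had no read in any heterozygous library, against 48 (Skint3) to 82 (4930432H08Rik) reads over the 3 wild-type libraries. These 5 were named because of that count, after their values were seen.

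Fewer genes rose by as much. The clearest rise by adjusted p was that of the noncoding gene 4930568E12Rik (chr9), from 15.8 ± 1.59 to 39.9 ± 2.51 CPM (SD, n = 3; 1.34 on the log2 scale, SE 0.10, edgeR adjusted p = 1.3e-05). Sfi1, which encodes a centrin-binding centrosome protein, stood at 8.32, 9.68 and 10.8 CPM in wild type and at 39.3, 34.6 and 28.1 CPM in heterozygotes (1.83, SE 0.14), with a homozygous mean of 28.3 CPM. Hs6st2, an X-linked heparan sulfate sulfotransferase gene, rose from 10.3 ± 0.766 to 22.4 ± 1.99 CPM (1.12), and Adamts9, a secreted metalloprotease gene, from 10.2 ± 1.40 to 26.3 ± 1.52 CPM (1.38). In each of these 4 genes all heterozygous libraries lay above all wild-type libraries, which the rule that named them required. Gprin3 rose from 1.40 ± 0.28 to 4.48 ± 0.0773 CPM, the collagen gene Col28a1 from 8.61 ± 1.61 to 20.3 ± 1.84 CPM, Scoc from 9.86 ± 0.742 to 20.1 ± 2.50 CPM, and the olfactory receptor gene Olfr161 from 0.920 ± 0.492 to 5.82 ± 0.489 CPM. The ribosomal pseudogene Rpl15-ps2 rose from 3.90 ± 0.415 to 11.3 ± 2.50 CPM, a value that near-identical copies of Rpl15 could share. 4930486L24Rik rose from 0.545 ± 0.0828 to 3.39 ± 1.15 CPM and Gm47051 from 7.46 ± 0.513 to 16.3 ± 1.32 CPM.

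**Figure D2:**
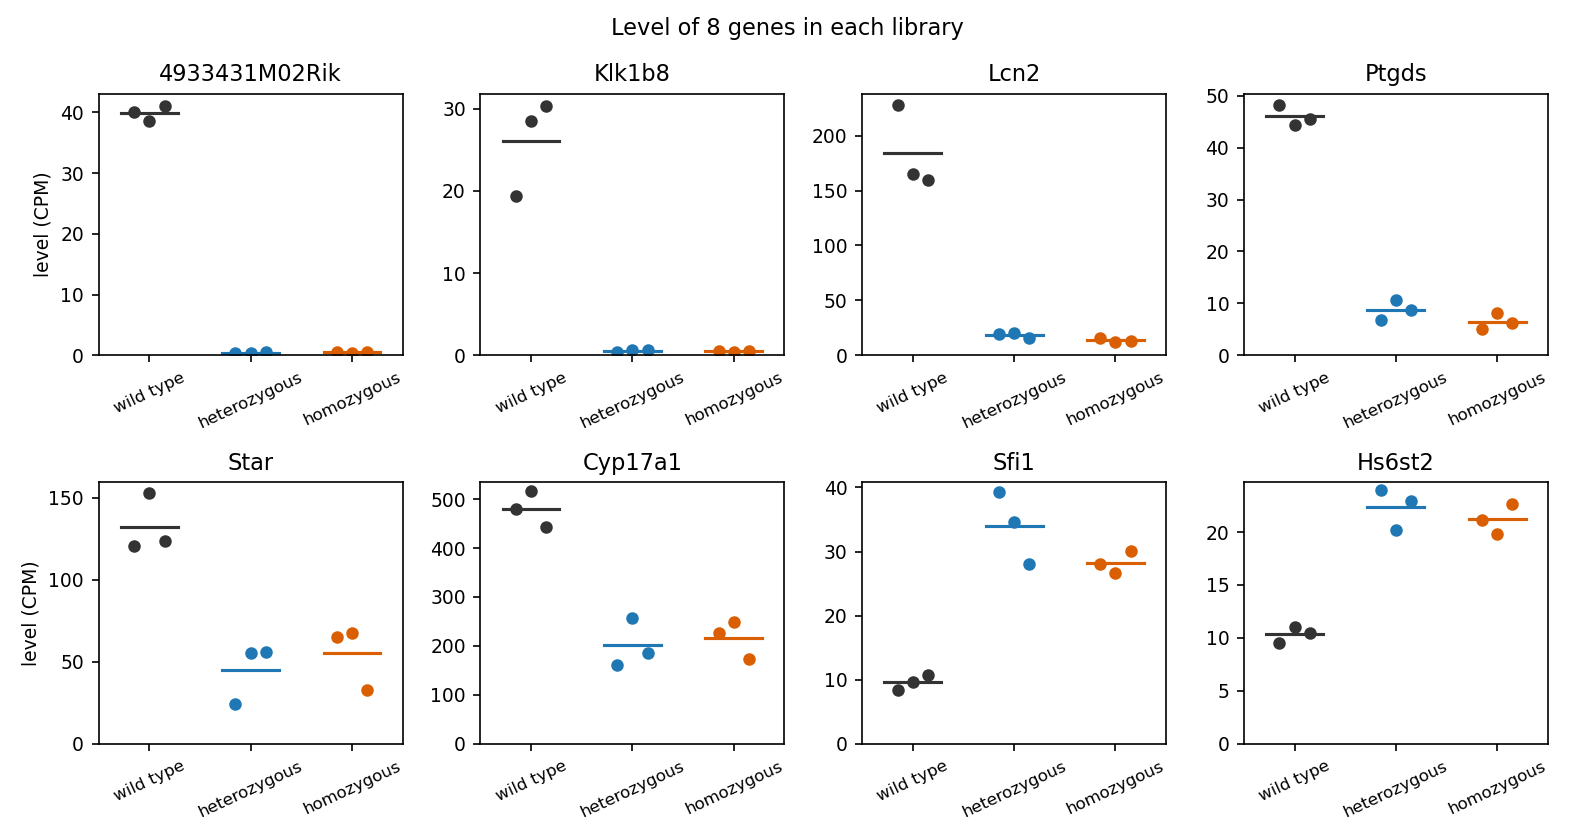
Level (CPM, axes from 0) of 8 genes in each wild-type, heterozygous and homozygous library; dots are libraries and lines are means. For the first 6 genes all heterozygous libraries lie below all wild-type libraries, for Sfi1 and Hs6st2 above them, and for all 8 the homozygous libraries lie on the heterozygous side. All but Star and Cyp17a1 were named by a rule that required heterozygous and wild-type libraries not to overlap.

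Testosterone synthesis runs in Leydig cells from cholesterol import by STAR, through side-chain cleavage by CYP11A1, to HSD3B1, CYP17A1 and HSD17B3. Genes of this pathway were lower in heterozygotes: of 14 members, all tested, 8 fell and 0 rose, with a median log2 fold change of -0.55 against -0.0023 over all features. Star stood at 121, 153 and 123 CPM in wild type and at 24.0, 55.6 and 55.9 CPM in heterozygotes (-1.56, SE 0.31, edgeR adjusted p = 0.0062). Cyp17a1 stood at 479, 517 and 442 CPM in wild type and at 161, 257 and 185 CPM in heterozygotes (-1.26, SE 0.17, edgeR adjusted p = 0.001). The genotypes did not overlap for either gene, and heterozygous library 1 was lowest for both. Hsd17b3, whose enzyme makes testosterone from androstenedione, fell from 25.5 ± 2.75 to 10.4 ± 1.03 CPM, Cyp11a1 from 258 ± 9.98 to 137 ± 31.8 CPM and Hsd3b1 from 161 ± 15.5 to 93.6 ± 13.9 CPM (SD, n = 3). The lipoprotein receptor gene Scarb1 fell by 0.63 on the log2 scale, the steroidogenic regulator Nr5a1 (SF-1) by 0.69 and the P450 reductase gene Por by 0.46. Hsd3b6, the other 3-beta-hydroxysteroid dehydrogenase of adult Leydig cells, stood at 53.025, 62.5 and 60.4 CPM in wild type and at 76.4, 66.2 and 62.3 CPM in heterozygotes, and Lhcgr, the luteinizing hormone receptor gene, at 25.5 ± 5.24 and 22.3 ± 2.84 CPM, and both missed the threshold (adjusted p = 0.28 and 0.396). The summed level of the list was 1381 to 1511 CPM in wild type and 725 to 917 CPM in heterozygotes, and the count of falls was 7 without wild-type library 1 and 7 without heterozygous library 3.

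Other Leydig genes moved in both directions. Of 13 members of a maturation list, 11 were tested, 5 fell and 3 rose. Ptgds, the lipocalin-type prostaglandin D synthase gene, stood at 48.3, 44.4 and 45.5 CPM in wild type and at 6.77, 10.6 and 8.80 CPM in heterozygotes (-2.41, SE 0.17, edgeR adjusted p = 1.2e-05). Sult1e1, the estrogen sulfotransferase gene, fell from 8.22 ± 1.21 to 1.27 ± 0.698 CPM, the carboxylesterase gene Ces1d from 23.9 ± 0.526 to 6.23 ± 1.98 CPM and the fatty acid binding protein gene Fabp3 from 135 ± 10.5 to 46.6 ± 11.2 CPM (SD, n = 3). Srd5a1, whose enzyme reduces testosterone to dihydrotestosterone, and Akr1c14, whose enzyme reduces dihydrotestosterone further, rose by 0.84 and 0.85 on the log2 scale, from 6.75 ± 0.674 to 12.1 ± 1.32 CPM and from 4.24 ± 0.334 to 7.63 ± 1.11 CPM. Pdgfra, a receptor gene of Leydig precursors, rose by 0.33 (adjusted p = 0.049). The Leydig hormone gene Insl3 had 0 reads in every library, since it lies within another annotated gene of its strand, and Hsd11b1 was too low to test. Of 23 genes of cholesterol synthesis and uptake, 7 fell and 2 rose; Fdps fell from 7.50 ± 1.33 to 3.70 ± 0.222 CPM and Fdft1, the squalene synthase gene, from 297 ± 4.19 to 230 ± 13.7 CPM, while the sterol carrier gene Stard4 rose from 9.62 ± 0.882 to 14.3 ± 1.03 CPM. Only 2 of the 7 falls were called without wild-type library 1, and 2 without heterozygous library 3. RefSeq promoter windows of 300 bases (GRCm38.p6, from 250 bases before to 50 after the start) were found for 8 of the 14 steroidogenesis genes, and 0 of the 8 held AAGGTCA on either strand, a site that NR5A1 binds, against 4.16% of 19776 windows. So few windows cannot tell 0 from that share, and no conclusion is drawn.

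Tissue kallikreins are secreted serine proteases, encoded by a tandem cluster on chromosome 7. Of 14 members, 11 were tested, 7 fell and 0 rose, with a median log2 fold change of -1.65. Klk1b8 stood at 19.4, 28.5 and 30.3 CPM in wild type and at 0.366, 0.668 and 0.584 CPM in heterozygotes (-5.63, SE 0.24, edgeR adjusted p = 1.6e-07). Klk1b26 stood at 7.86, 7.20 and 6.32 CPM against 0.275, 0.468 and 0.413 CPM (-4.24, SE 0.25), and Klk1b9 fell from 6.73 ± 2.32 to 0.511 ± 0.064 CPM (SD, n = 3; -3.71). These 3 genes were nearly absent from all heterozygous libraries. Klk1b21, Klk1b24 and Klk1b27 fell less, by 1.67, 1.65 and 1.43 on the log2 scale, and Klk1b22, at 1.14 ± 0.327 CPM in wild type, by 2.30. Klk1, Klk1b3, Klk1b4 and Klk1b5 missed the threshold, with log2 fold changes from -0.53 (Klk1b3) to -0.34 (Klk1b5). Klk1b1, Klk1b11 and Klk1b16 had too few reads to test. The members are related in sequence, and whether reads were split between them was not tested. Over the 91 pairs of RefSeq promoter windows, identity ran from 37.4% to 89.7%, with a median of 75.3%. The windows of the 3 members that fell most and of Klk1b5, which missed the threshold, are shown for comparison, with TTTAAA in capitals. They are Klk1b8 (chr7:43950416-43950715), Klk1b26 (chr7:44012428-44012727), Klk1b9 (chr7:43975811-43976110) and Klk1b5 (chr7:44216224-44216523), all on the plus strand of GRCm38.p6, 5′ to 3′.
Klk1b8: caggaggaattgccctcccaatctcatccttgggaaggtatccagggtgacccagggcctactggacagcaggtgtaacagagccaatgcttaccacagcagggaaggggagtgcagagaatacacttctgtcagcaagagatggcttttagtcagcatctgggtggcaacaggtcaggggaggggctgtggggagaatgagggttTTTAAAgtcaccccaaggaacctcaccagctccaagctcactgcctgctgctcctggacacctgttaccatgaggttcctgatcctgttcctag
Klk1b26: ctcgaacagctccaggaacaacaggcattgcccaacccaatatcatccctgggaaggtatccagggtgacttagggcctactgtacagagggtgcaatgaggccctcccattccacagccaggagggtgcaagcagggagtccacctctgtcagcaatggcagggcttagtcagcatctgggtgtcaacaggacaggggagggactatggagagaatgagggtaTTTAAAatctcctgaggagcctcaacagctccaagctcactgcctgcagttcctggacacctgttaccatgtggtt
Klk1b9: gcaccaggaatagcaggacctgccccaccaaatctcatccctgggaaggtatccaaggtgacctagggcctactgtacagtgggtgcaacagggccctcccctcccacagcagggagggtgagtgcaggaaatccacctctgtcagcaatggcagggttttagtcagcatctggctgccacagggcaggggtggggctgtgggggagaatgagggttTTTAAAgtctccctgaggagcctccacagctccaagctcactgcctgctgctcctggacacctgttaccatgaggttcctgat
Klk1b5: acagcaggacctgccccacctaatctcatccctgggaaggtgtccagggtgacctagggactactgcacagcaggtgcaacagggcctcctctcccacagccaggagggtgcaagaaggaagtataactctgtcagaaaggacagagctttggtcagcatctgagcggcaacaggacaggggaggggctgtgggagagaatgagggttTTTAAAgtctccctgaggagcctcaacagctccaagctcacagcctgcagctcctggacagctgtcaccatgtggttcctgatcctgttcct
TTTAAA, which reads the same on both strands and was chosen after the windows were seen, lies in 13 of the 14 kallikrein windows, against 12.01% of all windows, so it is shared by members that fell and by members that missed the threshold. Klk1b5 was 80.5% identical to Klk1b8 over the aligned window, and Klk1b26 71.8%.

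Lcn2, which encodes the iron-siderophore binding protein lipocalin 2, stood at 228, 165 and 160 CPM in wild type and at 19.3, 20.3 and 15.4 CPM in heterozygotes (-3.33, SE 0.17, edgeR adjusted p = 7.2e-07). Of 8 lipocalin genes 4 were tested, and Lcn2 and Ptgds were the 2 that fell. Retinol-binding protein gene Rbp4 stood at 2.03 CPM in wild type and 2.38 CPM in heterozygotes, and Apod at 0.569 and 0.405 CPM. The epididymal lipocalins Lcn5, Lcn8 and Lcn9 were too low to test, with 0 to 7 reads over each group.

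Markers of other cells that a testis sample can hold were read beside these falls. Of 9 adipose genes 7 were tested and 4 fell, with a median of -1.34: Car3 stood at 4.66, 3.29 and 1.55 CPM in wild type and at 0.366, 0.501 and 0.722 CPM in heterozygotes, and Cfd fell from 1.34 ± 0.535 to 0.217 ± 0.122 CPM (SD, n = 3). Adipoq, the defining adipocyte hormone gene, stood at 11.9 CPM in wild type and 10.1 CPM in heterozygotes and missed the threshold (adjusted p = 0.35), and the summed level of the list was 22.8 to 24.3 CPM in wild type and 15.1 to 18.7 CPM in heterozygotes, of which Adipoq made up the largest part. Of the 4 falls, 2 were called when wild-type library 1, wild-type library 3 or heterozygous library 3 was left out. Of 9 epididymal genes 3 were tested and 0 passed, with a median of -1.69, and their summed level was 4.23 to 39.1 CPM in wild type and 4.19 to 17.7 CPM in heterozygotes. Of 13 endothelial genes 0 passed, with summed levels of 58.7 to 65.5 and 59.4 to 66.2 CPM. Of 12 peritubular myoid genes 2 fell, Actg2 from 171 ± 2.45 to 113 ± 36.4 CPM and Smtn from 8.07 ± 0.533 to 5.71 ± 0.905 CPM, and neither passed when wild-type library 1, wild-type library 3 or heterozygous library 3 was left out, while 1 passed without library 2 of either genotype. Of 6 red blood cell genes tested 1 fell, Alas2, whose call was lost when heterozygous library 1 or any 1 wild-type library was left out, and the globin gene Hbb-bs stood at 19.0 and 18.1 CPM. The part of adipose or other tissue in the falls above was not tested.

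Macrophage genes as a list did not move one way. Of 18 members 3 fell and 1 rose, and the summed level was 186 to 212 CPM in wild type and 175 to 203 CPM in heterozygotes. H2-Aa, a class II antigen-presentation gene, stood at 1.97, 2.29 and 2.41 CPM in wild type and at 0.206, 0.267 and 0.206 CPM in heterozygotes (-3.28, SE 0.32, edgeR adjusted p = 0.00012), and its partner Cd74 fell from 5.80 ± 0.356 to 2.85 ± 1.19 CPM. The complement gene C1qb fell by 0.57 on the log2 scale and the lysozyme gene Lyz2 rose by 0.56. The lineage genes Csf1r, Adgre1 and Cd68 missed the threshold, at 23.7 and 21.6 CPM, 7.32 and 8.99 CPM, and 3.96 and 4.25 CPM in wild type and heterozygotes. H2-Ab1, the other chain of the same class II molecule as H2-Aa, stood at 13.0 CPM in wild type and 11.4 CPM in heterozygotes (log2 fold change -0.19, adjusted p = 0.33). Without wild-type library 1, or without heterozygous library 3, 1 of the 3 falls was called.

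Sertoli cell genes that passed were higher. Of 24 members 23 were tested, 8 rose and 0 fell, although the list's median log2 fold change was 0.05. Kitl, the ligand that supports KIT-bearing spermatogonia, stood at 44.6, 41.6 and 46.1 CPM in wild type and at 65.3, 61.3 and 70.9 CPM in heterozygotes (0.58, SE 0.10, edgeR adjusted p = 0.0046). Cst12, a cystatin gene, rose from 50.3 ± 16.9 to 101 ± 4.73 CPM, Fshr, the receptor gene for follicle-stimulating hormone, from 11.4 ± 1.91 to 17.5 ± 2.71 CPM and Shbg from 15.4 ± 1.22 to 26.1 ± 8.23 CPM (SD, n = 3). The defining genes Sox9 and Gata4 missed the threshold, at 6.87 and 27.2 CPM in wild type and 6.59 and 24.0 CPM in heterozygotes. Of 4 tested androgen-responsive Sertoli genes 1 fell, the tight-junction gene Cldn3, from 8.23, 4.51 and 5.05 CPM to 1.90, 1.30 and 1.17 CPM (-2.01, SE 0.32, edgeR adjusted p = 0.0026). Rhox5, Eppin and Drd4 missed the threshold, with log2 fold changes of -0.33, -0.22 and -0.17. The 8 rises became 2, 3 and 5 without wild-type libraries 1, 2 and 3, 5 without heterozygous library 1 and 3 without heterozygous library 3.

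Germ cell lists were read in order of development. In spermatogonia, the mitotic stem and progenitor cells, 2 of 19 tested members fell and 1 rose. Dmrtb1 fell from 381 ± 28.1 to 257 ± 18.0 CPM and Kit from 46.3 ± 8.11 to 31.7 ± 3.44 CPM, while the meiotic entry gene Stra8 rose from 5.41 ± 0.26 to 7.11 ± 0.472 CPM (SD, n = 3). The Stra8 call was lost when any 1 wild-type or heterozygous library was left out (adjusted p from 0.0534 to 0.101, edgeR). The stem cell genes Gfra1, Id4 and Zbtb16 missed the threshold. Genes of the meiotic chromosome axis and synaptonemal complex were higher, with 12 of 19 rises, 1 fall and a median of 0.42. Sycp3 stood at 110, 124 and 149 CPM in wild type and at 202, 190 and 226 CPM in heterozygotes (0.69, SE 0.13, edgeR adjusted p = 0.0051). Sycp2 rose from 571 ± 34.5 to 861 ± 116 CPM, Terb2, which attaches telomeres to the nuclear envelope, from 8.33 ± 0.705 to 13.4 ± 1.05 CPM and Hormad1 by 0.50 on the log2 scale. The cohesin gene Rec8 was the member that fell, from 41.0 ± 4.80 to 30.6 ± 3.70 CPM. Of 23 recombination genes 10 rose and 1 fell, with a median of 0.33: Meiob, a single-strand DNA binding protein gene, rose from 36.5 ± 1.88 to 63.0 ± 4.07 CPM and Spo11, whose product makes the meiotic DNA breaks, from 56.5 ± 5.48 to 78.7 ± 8.59 CPM, while Mei1 fell by 0.48. Without heterozygous library 3 the rises numbered 8 for the axis list and 4 for recombination. The recombination rises numbered 6 when heterozygous library 1, wild-type library 2 or wild-type library 3 was left out.

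In lists of later stages more members fell than rose. In pachytene and dividing spermatocytes 6 of 18 tested members fell and 1 rose; Ybx2, an RNA-binding protein gene of stored germ cell mRNAs, fell from 866 ± 98.6 to 526 ± 67.5 CPM and the kinase gene Plk1 from 48.3 ± 13.5 to 27.8 ± 2.43 CPM (SD, n = 3), and 3 of the 6 falls were called without wild-type library 1 and 3 without heterozygous library 3. In round spermatids 7 of 24 fell and 1 rose, with Spaca4, a sperm membrane protein gene, at 59.9 ± 5.66 and 33.7 ± 9.77 CPM; of the 7 falls, 1 was called when heterozygous library 3 was left out, 4 for heterozygous library 1 and 3 for wild-type library 2 or 3. In elongating spermatids, which compact their chromatin with protamines and build the tail, 17 of 28 tested members fell and 0 rose, with a median of -0.72. Tssk6, a kinase gene needed for sperm chromatin condensation, stood at 244, 203 and 226 CPM in wild type and at 51.4, 121 and 73.8 CPM in heterozygotes (-1.45, SE 0.23, edgeR adjusted p = 0.0027). Odf1, an outer dense fibre gene, stood at 837, 774 and 762 CPM against 211, 502 and 462 CPM (-1.01), and Prm2 at 2359, 2216 and 2328 CPM against 518, 1616 and 1410 CPM (-0.96). Heterozygous library 1 was lowest for all 3 genes. The most abundant members were less clear: Prm1 stood at 4395, 3382 and 3377 CPM in wild type and at 944, 2801 and 2625 CPM in heterozygotes (-0.81, SE 0.31, adjusted p = 0.077, edgeR), Tnp2 at 2307, 2684 and 2904 CPM against 1022, 2572 and 1885 CPM (-0.53, SE 0.25, adjusted p = 0.14), and Tnp1 had a log2 fold change of -0.04. The summed level of the list was 22810 to 23573 CPM in wild type and 8685 to 18823 CPM in heterozygotes. Without heterozygous library 1 the falls numbered 16 (median -0.46), and without heterozygous library 3 they numbered 12. Of the 30 members, 27 had a promoter window, and 0 of these held TGACGTCA, the cAMP response element that CREM binds in spermatids, against 2.27% of all windows. Here too the windows are too few to tell 0 from that share.

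**Figure D3:**
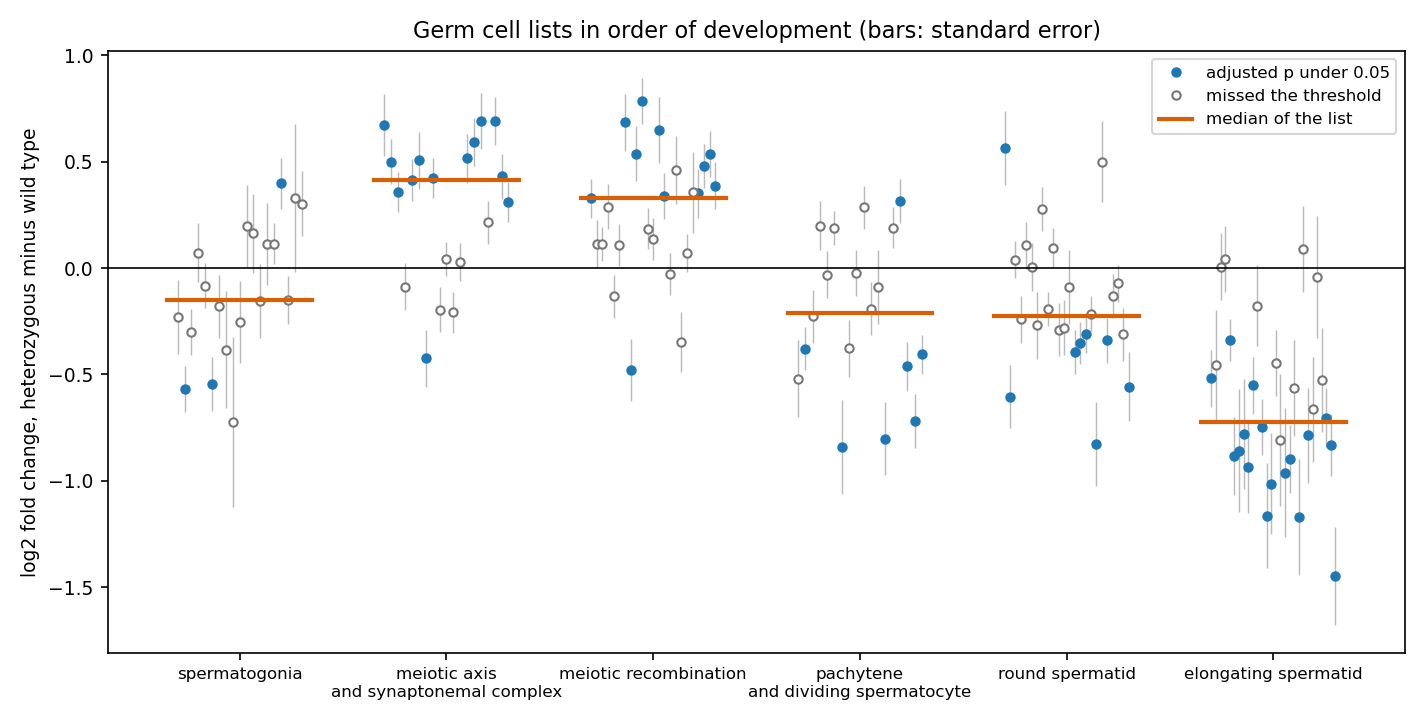
Log2 fold change (heterozygous minus wild type) of each tested member of 6 germ cell lists in order of development; filled dots passed at an adjusted p under 0.05, bars are standard errors and thick lines list medians. The medians are 0.42 and 0.33 for the axis and recombination lists and -0.72 for elongating spermatids.

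The structures that spermatids build were read with lists of their own. Of 40 acrosome genes 10 fell and 2 rose, with a median of -0.15. The sperm protease gene Prss21 fell from 58.4 ± 2.39 to 38.4 ± 3.78 CPM (-0.61, SE 0.09) and the actin-like gene Actl7a from 235 ± 9.87 to 168 ± 26.5 CPM, while Vps54, a vesicle tethering gene, rose from 41.0 ± 1.64 to 54.5 ± 4.40 CPM (SD, n = 3). Zpbp, Acr and Gopc, which serve zona binding, acrosomal proteolysis and acrosome biogenesis, missed the threshold with log2 fold changes of 0.08, -0.17 and 0.19. The 10 falls became 3 without heterozygous library 3, 6 and 5 without wild-type libraries 2 and 3, and 5 with the gene length trend removed. Of 33 flagellum genes 12 fell and 1 rose: Dnah17, an axonemal dynein gene of sperm, fell from 366 ± 50.3 to 257 ± 10.8 CPM, and Ccdc39 rose by 0.45 on the log2 scale. The 12 falls became 7 without wild-type library 1 and 6 without heterozygous library 3. Of 20 manchette genes 4 fell, among them Rimbp3 from 399 ± 54.9 to 271 ± 20.3 CPM, and 7 fell without heterozygous library 2. Of 34 Golgi genes 5 rose and 3 fell, by at most 0.53 (Bet1) in size, and the GM130 gene Golga2, whose product is a Golgi matrix protein, was at 63.1, 51.2 and 55.4 CPM in wild type and at 62.6, 58.9 and 51.7 CPM in heterozygotes (log2 fold change 0.03, SE 0.11, adjusted p = 0.87), with overlapping groups and a homozygous mean of 83.7 CPM. The Golgi rises and falls numbered 1 and 0 when heterozygous library 3 was left out, 3 and 2 for heterozygous library 1, 3 and 0 for wild-type library 1, and 2 and 3 or 2 and 2 for wild-type library 2 or 3.

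Of 30 genes of the piRNA machinery 5 rose and 0 fell, beside 11.1% and 12.9% of all tested features. The rises numbered 3 without heterozygous library 1 and 1 without heterozygous library 3, wild-type library 2 or wild-type library 3. Asz1, a mitochondrial scaffold gene of the pathway, rose from 51.4 ± 5.42 to 73.9 ± 8.70 CPM, Tex15 from 342 ± 35.1 to 448 ± 54.6 CPM and Tdrd12 from 117 ± 4.44 to 143 ± 9.22 CPM (SD, n = 3). The calls of Tex15 and Tdrd12 were lost with the length trend removed and when wild-type library 2, wild-type library 3 or heterozygous library 3 was left out, and that of Tex15 also for heterozygous library 1. Piwil1 stood at 240, 219 and 229 CPM in wild type and at 231, 212 and 193 CPM in heterozygotes (-0.11, adjusted p = 0.43), and Piwil2 at 247 and 230 CPM. Mybl1 stood at 131 and 160 CPM (0.28, adjusted p = 0.061) and the helicase gene Mov10l1 at 125 and 146 CPM (0.22, adjusted p = 0.081), and both missed the threshold. Of 463 annotated precursors outside the locus 80 were tested, of which 19 rose and 1 fell, with a median of 0.20. 13_qA5_703_1 rose from 61.2 ± 6.51 to 83.6 ± 5.40 CPM, and 15_qE1_1119_3, the member that fell, from 7.50 ± 1.33 to 3.50 ± 0.822 CPM, with 60.4% of its length shared with other features of its strand. The 19 rises became 10, 11 and 11 without wild-type libraries 1, 2 and 3, 7 without heterozygous library 1 and 5 without heterozygous library 3.

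In 3 further genes the heterozygous level lay between those of wild type and homozygotes, as it did for Gnal and both locus precursors. Gm9 on chromosome X stood at 4.90, 4.84 and 5.32 CPM in wild type and at 8.24, 10.1 and 9.73 CPM in heterozygotes (0.90, SE 0.11, edgeR adjusted p = 6.15e-04), with a homozygous mean of 41.8 CPM. Tmem184c stood at 44.7, 52.2 and 54.7 CPM against 76.2, 74.9 and 92.0 CPM (0.68, SE 0.11), with a homozygous mean of 231 CPM, and Map7d3, a microtubule-associated protein gene, at 13.4 ± 1.99 and 17.8 ± 1.97 CPM, with a homozygous mean of 35.2 CPM. The Map7d3 call was lost when wild-type library 1, wild-type library 2, heterozygous library 1 or heterozygous library 3 was left out. These 3 genes were chosen for that pattern in earlier results of these data. Gm26561, a long noncoding RNA, stood at 15.4 ± 1.95 CPM in wild type and 24.6 ± 1.91 CPM in heterozygotes (0.67, SE 0.11), and its homozygous mean was 13.1 CPM. With both strands summed its log2 fold change was 0.05 (adjusted p = 0.79, edgeR). The homozygous mean was 0.472 CPM for Klk1b8, 13.6 CPM for Lcn2, 216 CPM for Cyp17a1 and 224 CPM for Sycp3. The contrasts of the 2 mutant genotypes with wild type share the wild-type libraries, so these values stand side by side only.

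Stress and energy genes gave mixed counts. Of 28 interferon and RNA-sensing genes 2 rose and 1 fell: Dhx58, a RIG-I-like receptor gene, fell from 45.9 ± 9.38 to 26.5 ± 1.39 CPM. Of 21 unfolded protein and heat shock genes 1 rose and 2 fell, with Dnajb1 at 281 ± 6.87 and 215 ± 12.7 CPM (SD, n = 3). Of 18 p53 and apoptosis genes 3 rose and 3 fell, with the cell death gene Bbc3 (PUMA) at 1.47 ± 0.073 and 0.505 ± 0.173 CPM, and of 16 immediate early genes 2 fell, Junb and Klf4. The Klf4 call was lost when any 1 wild-type library, heterozygous library 1 or 3 or homozygous library 3 was left out, and the Junb call for wild-type libraries 1 and 3 and heterozygous library 3. Without heterozygous library 3 these 4 lists held 0, 0, 1 and 0 rises and 1, 2, 0 and 0 falls, and without wild-type library 1 they held 0, 0, 2 and 0 rises and 1, 1, 1 and 0 falls. Of 15 germ cell glycolysis genes 6 fell and 0 rose: Pgam2, the phosphoglycerate mutase gene, fell from 534 ± 61.6 to 325 ± 54.8 CPM and Aldoart2, a sperm aldolase gene, from 194 ± 11.4 to 114 ± 27.6 CPM, while Ldhc and Pgk2, at 2319 and 695 CPM in wild type, missed the threshold. Of 14 mitochondrially encoded genes 4 rose and 1 fell, with mt-Cytb at 426 ± 37.2 and 624 ± 61.1 CPM. Of 78 ribosomal protein genes 28 fell and 7 rose. Rplp0 stood at 593, 495 and 488 CPM in wild type and at 200, 224 and 196 CPM in heterozygotes (-1.35, SE 0.12, edgeR adjusted p = 4.8e-05). With the gene length trend removed the ribosomal counts were 13 and 11, and the 28 falls became 10 without wild-type library 1 and 10 without heterozygous library 3, while the 7 rises became 2 to 4 when any 1 wild-type or heterozygous library was left out.

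**Figure D4:**
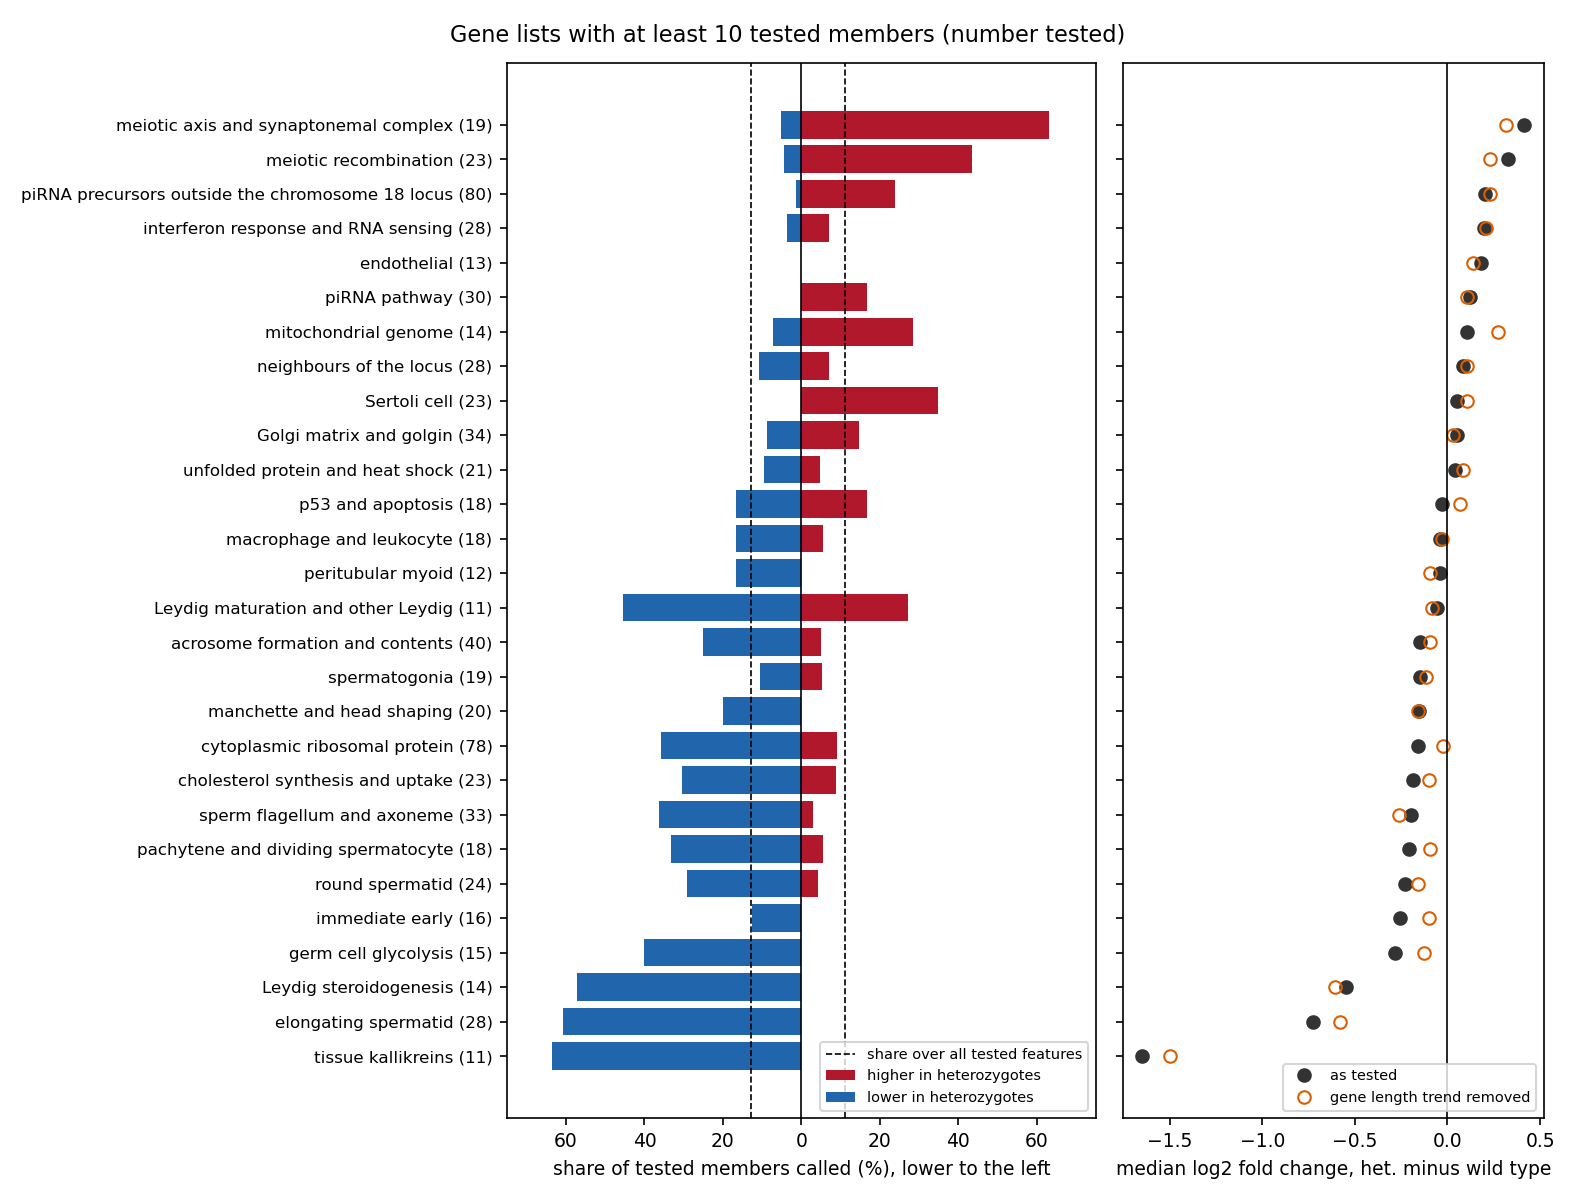
Left, share of tested members of each list called higher (right bars) or lower (left bars) in heterozygotes, with dashed lines at the shares over all features, 11.1% and 12.9%. Right, the list's median log2 fold change as tested and with the gene length trend removed; the kallikrein list lies at -1.65 and the axis list at 0.42.

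Calls followed gene length. Counts cover whole gene bodies, introns included. Among the shortest 10% of features, with a median length of 0.864 kb, 4.04% were higher and 15.6% lower. Among the longest 10%, with a median length of 198 kb, 28.1% were higher and 4.67% lower, and the median log2 fold change rose from -0.16 to 0.23 between these ends. The same tilt was seen library by library: the median level of the longest minus the shortest 25% of features, relative to the mean of all libraries, was -0.28, -0.14 and -0.17 on the log2 scale in wild type and 0.05, 0.04 and 0.28 in heterozygotes. All 3 wild-type libraries thus lay below all 3 heterozygous ones. With a smooth length trend removed from each library, 1961 features were higher (9.44%) and 2317 lower (11.1%). Of the lists above, Leydig steroidogenesis then held 8 falls (median -0.61), kallikreins 7 (-1.50), elongating spermatids 12 (-0.58) and the meiotic axis 10 rises (0.32). Other lists lost more of their calls. Meiotic recombination then held 5 rises in place of 10, and the piRNA machinery 1 rise and 1 fall in place of 5 and 0. The part of the length trend in single results was not tested beyond these values.

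Features of chromosome X were called higher more often than lower. Of 902 tested, 183 were higher (20.3%) and 24 lower (2.66%), with a median log2 fold change of 0.23, while the medians of the autosomes ran from -0.12 (chromosome 11) to 0.06 (chromosome 3). A median above those of the autosomes was not particular to X. Of 18 tested features of the mitochondrial genome 4 were higher (22.2%) and 1 lower (5.56%), with a median of 0.22. Their list's summed level overlapped, at 114231 to 192204 CPM in wild type and 137339 to 156747 CPM in heterozygotes. Of 66 features on chromosome Y 7 were higher (10.6%) and 1 lower (1.52%), with a median of 0.20. The share higher on Y was thus near the 11.1% of all tested features, and the share lower was below their 12.9%. Among the longest 25%, 47.0% of 217 features on X were higher and 0 lower, against 22.0% and 6.03% on autosomes. With the length trend removed, 18.3% of X features were higher and 1.44% lower, and the median was 0.27, against 0.47 for the mitochondrial genome and 0.30 for Y. The 183 rises became 98 without wild-type library 1, 78 without heterozygous library 3 and 112 without wild-type library 2, with medians of 0.19, 0.20 and 0.23. With the mean log2 CPM of elongating spermatid genes as a covariate, 28 X features were higher (3.10%) and 9 lower (0.998%), with a median of 0.25. On autosomes 2.04% were then higher and 4.26% lower. Tested against 2-fold, 0 X features were called. Among the X features that rose were Hs6st2 and Tex11, a meiotic gene that rose from 29.4 ± 1.24 to 42.6 ± 5.91 CPM (SD, n = 3).

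**Figure D5:**
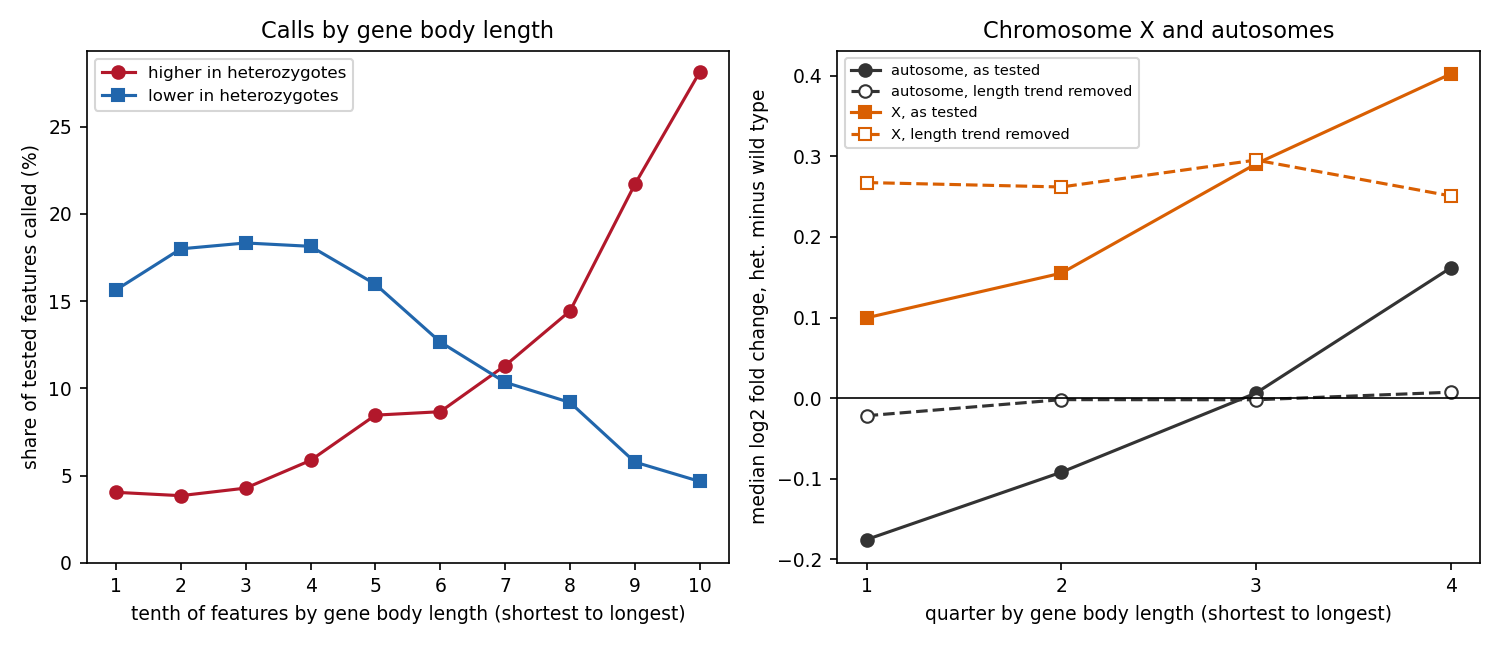
Left, share of tested features called higher or lower in heterozygotes, in 10 classes of gene body length. Right, median log2 fold change by length (4 equal classes) for chromosome X and the autosomes, as tested and with the length trend removed; the X medians run from 0.10 to 0.40 as tested and from 0.25 to 0.30 after removal.

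Changes of at least 2-fold were counted along the chromosomes. Of 548 windows of 5 Mb that held a tested feature, 22 held at least 5 such calls. These 22 held 8.57% of tested features and 23.2% of the 2-fold calls. Over all tested features, 1.23% rose and 2.06% fell at least 2-fold. The window with the most lay on chromosome 7 from 40 to 45 Mb, with 17 falls and 4 rises among 110 features, and held the kallikreins, AI987944, Gm17067 and Vmn2r-ps54. Chromosome 14 from 0 to 5 Mb held 8 rises and 0 falls among 28 features, all of them with placeholder names. On chromosome 7, 5 of 6 tested antiviral Trim genes of 1 cluster rose, with Trim12a at 0.802, 1.33 and 1.41 CPM in wild type and 4.30, 3.81 and 4.26 CPM in heterozygotes (1.83, SE 0.22). These Trim genes were not a list set in advance, and Trim12a was named for its adjusted p. Their count is thus not independent of the values. On chromosome 17 from 30 to 35 Mb, H2-K1 fell from 30.0 to 6.17 CPM together with H2-Aa and H2-Eb1, while H2-Ob there and H2-T24, farther along the chromosome, rose, so the antigen-presentation genes did not share a direction. Whether the lines differ in background at these places was not tested.

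Of 27 small nuclear RNA genes tested 13 fell and 1 rose, with a median of -1.04, beside 12.9% and 11.1% of all tested features. Of other short classes, 6 of 18 miscellaneous RNAs, 1 of 14 miRNA genes, 1 of 6 small nucleolar RNAs and 0 of 3 small Cajal body RNAs fell. These are smaller shares, but 2 of 3 ribozyme genes fell, a larger share (66.7% against 48.1%). Together, small structured RNAs made up 6.60%, 4.22% and 3.91% of wild-type counts and 3.94%, 2.66% and 2.01% of heterozygous counts. The signal recognition particle RNA gene Rn7s2 stood at 13364, 3852 and 3156 CPM in wild type and at 2447, 926 and 446 CPM in heterozygotes (-2.42, SE 0.62, edgeR adjusted p = 0.0168), and Rmrp, the RNA of RNase MRP, at 6802, 4216 and 3662 CPM against 3136, 1856 and 1128 CPM (-1.26). Wild-type library 1 was highest for both. Rn7sk, the most abundant of them, missed the threshold (-0.74, adjusted p = 0.0518). Histone genes with symbols that start with Hist, many of whose mRNAs also lack a poly(A) tail, were looked up after their values were seen. Of 61 tested, 19 fell and 0 rose, with a median of -0.68, and Hist1h4c fell from 114 to 35.3 CPM. The set is not limited to replication-dependent genes. Its falls include the testis variants Hist1h1t, from 406 to 227 CPM, and Hist1h2ba, from 1220 to 761 CPM. Hist1h1t is also counted in the pachytene list. The 13 falls of small nuclear RNAs became 6 without wild-type library 1 and 7 without heterozygous library 2 or 3. The 19 falls of histone genes became 4 without wild-type library 1, and 32, 6 and 4 without heterozygous libraries 1, 2 and 3.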

How the data were processed

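Long RNA was measured in whole testes by stranded total RNA-seq after ribosomal RNA removal, per the labels' protocols. The authors deposited raw counts, made with featureCounts 1.6.2 on read pairs over whole gene bodies of GENCODE M12 plus piRNA precursors, per the file headers; pairs that overlap more than 1 feature of a strand were not counted. The submitters' processing notes name HISAT2 2.1.0 and cutadapt 1.18, and the builds mm10 and mm9 without roles. Counts of the kit's strand were used, with 50051 features. All 9 RNA-seq libraries were fitted together with edgeR 4.0.16 (filterByExpr, TMM scaling, quasi-likelihood test), and p-values were adjusted over all 20782 tested features by Benjamini-Hochberg, with a threshold of 0.05. The fit was checked on simulated data. Levels are CPM of the scaled library. Alternatives used DESeq2 1.42.0, other scalings and filters, both strands, the 6 compared libraries alone, a 2-fold test, a spermatid covariate, a length trend (lowess) removed from each library, and each library left out.

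Named genes were the 12 of lowest adjusted p in each direction among those changed at least 2-fold, not overlapping and at 1 CPM or more in the higher group, up to 3 called members of each list and a fixed set; further list members were named after their values were seen. The members and lists were chosen with earlier results of these data known. Small RNA libraries were not used here. Some list members that are counted are not reported here by name.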

Additional observations from a re-analysis of the deposited data

How the results depend on the processing

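Of the 4977 calls, the total was 62 (5 higher, 57 lower) when a change was tested against 2-fold, which is also the count of 2-fold calls there. It was 1285 (432 higher, 853 lower) with the mean log2 CPM of the tested elongating spermatid genes as a covariate. The cause was not tested. Without scaling beyond library size 1575 features were lower, and with a mean of at least 1 CPM required, 429 calls were at least 2-fold. With 1 library left out, the total ran from 2432 to 4720, the rises from 1044 to 2248, the falls from 1388 to 2532 and the 2-fold calls from 441 to 770. Tested against 2-fold, both locus precursors missed the threshold at unchanged log2 fold changes of -0.74 and -0.84. With the spermatid covariate Actg2 turned to 0.0377 and Alas2 to 0.000484, and with both strands summed Uso1 turned to -0.0327, none of them called. Gm26561, Junb, Fabp4 and Alas2 also lost their calls with both strands summed. Of the 110 called genes named by rule, 108 kept their call with DESeq2, 102 with the length trend removed, 57 with the covariate, 93 without wild-type library 1 and 90 without heterozygous library 3. Without scaling beyond library size 104 kept it. The calls lost with the covariate included Star, Cst12, Fshr, Sycp2, Terb2 and mt-Cytb (adjusted p from 0.0534 to 0.166, edgeR). Those of Cyp17a1, Hsd3b1, Kitl, Sycp3 and Meiob were kept with it. No paired analysis was possible because the labels of the RNA-seq libraries carry no number or animal that pairs them across genotypes.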
